A study of Mus musculus with 13 samples.

Results

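The genes described here encode the subunits of respiratory complexes II to V, measured in tagged kidney RNA from 2 mouse models of iron overload and their controls. Members were the rows of the deposited gene table whose symbol names a succinate dehydrogenase subunit (Sdha to Sdhd), a subunit of complex III (the Uqcr symbols, Cyc1 and mt-Cytb), a subunit of cytochrome c oxidase (the Cox4i, Cox5, Cox6, Cox7 and Cox8 symbols and mt-Co1 to mt-Co3) or a subunit of ATP synthase (the Atp5 symbols, mt-Atp6 and mt-Atp8). The 11 symbols ending in -ps, the mark of a pseudogene, were left out. This gave 55 of the 35013 symbols in the table: 4 for complex II, 10 for complex III, 22 for complex IV and 19 for complex V. Of these, 49 lie in nuclear chromosomes and 6 in the mitochondrial genome. The rule uses symbols alone and no measured value, though it was set with earlier results of these data known.

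The study took kidneys from female mice and compared 4 libraries labelled Spns1 KO, 5 labelled WT and 4 labelled FeO (Iron Overload). Spns1 encodes a membrane protein of the late endosome and lysosome. All mice carried a tamoxifen-inducible Cre driven by the megalin promoter (Megalin3'Cre-Ert), which acts in proximal tubules, and one allele of Uprt that this Cre switches on, and the methods state that tamoxifen was given in parallel. Spns1 KO mice were Spns1 flox/flox, whereas the methods give WT and FeO mice a single floxed allele and the labels call them Spns1 WT. FeO mice were injected daily for 3 days with iron sucrose, 12 mg of it by the labels and 12 mg of elemental iron by the methods, and were euthanized 1 week later. Spns1 KO and WT mice carry the treatment label Control. Uprt lets cells build 4-thiouracil into new RNA, which was biotinylated, captured on streptavidin beads and selected for poly-A tails. The age of the mice is not given in the sources used here, and nothing beyond the numbered titles says that the libraries of a group came from separate mice, so p-values measure only the spread between these libraries.

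Respiratory complexes sit in the inner mitochondrial membrane. Complex II (succinate dehydrogenase) links the citric acid cycle to electron transport, complex III passes electrons from ubiquinol to cytochrome c, complex IV (cytochrome c oxidase) passes them to oxygen, and complex V (ATP synthase) makes ATP from the proton gradient. Iron is part of this machinery as heme and iron-sulfur clusters, in SDHB, the Rieske protein UQCRFS1, cytochromes b and c1, and subunit 1 of complex IV. The proximal tubule is among the tissues richest in mitochondria, since it takes up filtered solutes against gradients.

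Total counts were 31809135 to 71296474 per library in Spns1 KO, 23068023 to 37362311 in WT and 25986133 to 29981814 in FeO. The members took 7.13% to 17.5% of all counts. The level of Spns1 itself was 36.6 to 59.0 CPM (counts scaled to a common library size) in Spns1 KO and 39.2 to 62.9 CPM in WT. It thus did not separate these groups, and every direction given here is that of the libraries as labelled. The paper reports loss of Spns1 RNA and protein from proximal tubules of Megalin3'Cre-Ert;Spns1 flox/flox mice. Counts here are for the whole gene, whereas the floxed segment holds exon 3, and the reason for the overlap was not tested. Defining markers of the proximal tubule were present, with a summed level of 6223 to 7049 CPM in Spns1 KO, 3345 to 4711 CPM in WT and 1899 to 4614 CPM in FeO. Of the 8, 5 were upregulated in Spns1 KO and none downregulated, and 2 were upregulated and 1 downregulated in FeO. All 4 erythroid markers were upregulated in both models, from a summed 9.29 to 35.4 CPM in WT to 48.4 to 164 CPM in Spns1 KO and 25.9 to 234 CPM in FeO. Of 5 leukocyte markers, 1 was upregulated in Spns1 KO and 3 in FeO (37.6 to 50.2 CPM in WT, 108 to 153 CPM in Spns1 KO, 40.7 to 130.1 CPM in FeO). The marker called in Spns1 KO was Cd74, which made up most of that summed level (87.9 to 129.3 CPM in Spns1 KO, 22.9 to 32.5 CPM in WT). Of 5 collecting duct markers, 2 passed as upregulated for Spns1 KO and 4 in FeO (318 to 549 CPM in WT, 274 to 424 CPM in Spns1 KO, 478 to 1423 CPM in FeO). Of 5 loop and distal tubule markers, 2 were upregulated in Spns1 KO and none in FeO by edgeR. Their summed level was 1774 to 4210 CPM in WT, 3148 to 4179 CPM in Spns1 KO and 1810 to 4955 CPM in FeO. In WT and FeO these ranges overlap those of the proximal tubule markers, so RNA of other segments was present too. Of 8 podocyte and endothelial markers, 3 were upregulated in each model (with 1 downregulated in FeO), and of 5 fibroblast and muscle markers 1 in each. No marker was at 0 in every library, and the part that marker differences play in the results was not tested. In bulk RNA, fewer cells of a type and less RNA per cell cannot be told apart.

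Nuclear-encoded subunits of every complex were called upregulated in both models against WT, and of the 6 mitochondrially encoded members tested, 1 was called in Spns1 KO and 3 in FeO. Calls (up- or downregulated) needed an adjusted p under 0.05 in the quasi-likelihood test of edgeR (Benjamini-Hochberg over all genes tested) and a log2 fold change beyond 0.5, and SE below is the fitted standard error. Of the 52 members with enough counts to be tested, 43 were upregulated in Spns1 KO, where 14% of the 16468 genes tested were, and none was downregulated, where 7.55% were. In FeO, 39 were upregulated, where 22.4% of all genes tested were, and none was downregulated, where 19.7% were. In neither model was a member lower at an unadjusted p under 0.05 by edgeR, or called lower by DESeq2 (0 of 52 each). The median log2 fold change of the 46 nuclear members was 1.28 in Spns1 KO (2.44-fold) and 1.02 in FeO (2.03-fold). Over all genes tested it was -0.05 and -0.01. Each model was compared with the same 5 WT libraries, so their counts share those values. The 3 members not tested, Cox6c2, Cox7b2 and Cox8c, held between 1 and 10 counts over all 13 libraries.

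In Spns1 KO, 38 of the 52 members tested had every library above every WT library (13.1% of all genes tested did), and in FeO 31 did (16.9%). The libraries of a group were not alike. Spns1 KO 4 was the lowest Spns1 KO library for 39 of the 46 nuclear members, and FeO 2 was the lowest FeO library for 40. FeO 4 was the highest FeO library for 25. Without Spns1 KO 4 and FeO 4 together, an alternative chosen after seeing the data, 45 members were called upregulated in Spns1 KO and 38 in FeO. Without Spns1 KO 4 alone the Spns1 KO count was 44, and without FeO 4 alone the FeO count was 38. Scaling to library totals in place of TMM factors moved the median log2 fold change of all genes in Spns1 KO from -0.05 to -0.18, and 40 members were still upregulated there and 39 in FeO. That scaling turned the split of all calls in Spns1 KO from 2307 up and 1243 down to 1739 up and 2086 down.

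**Figure D1:**
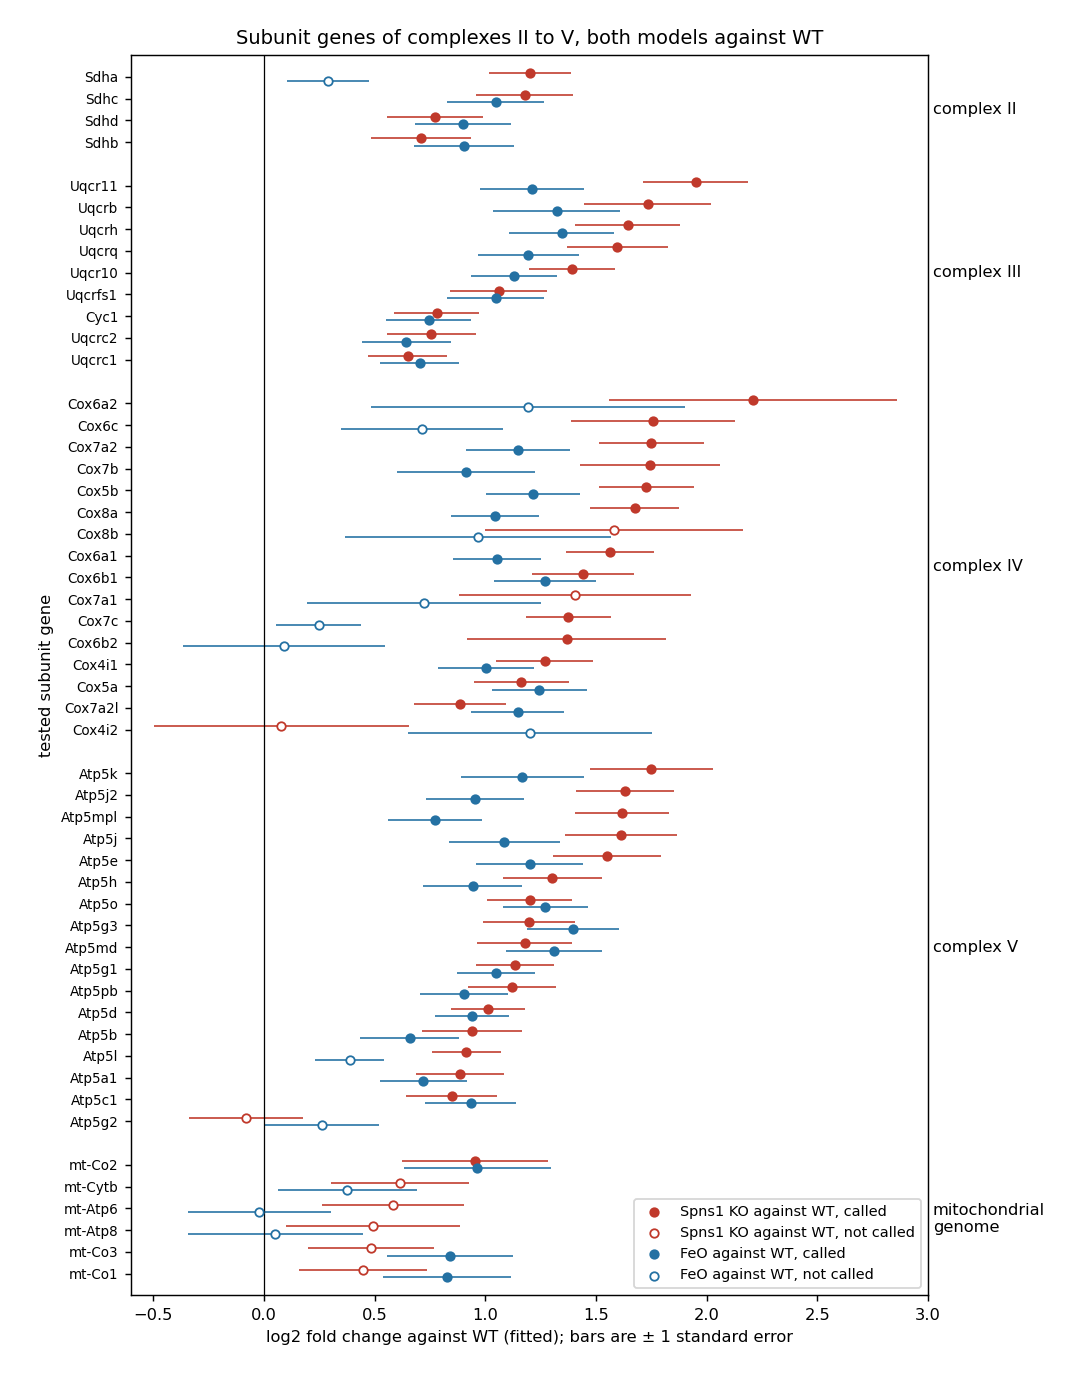
Fitted log2 fold change (horizontal axis) of each tested subunit gene (vertical axis, grouped by complex, with the 6 genes of the mitochondrial genome last) in Spns1 KO (red) and FeO (blue) against WT. Bars are 1 SE each way, filled points passed both limits and open points did not; nearly all nuclear subunits lie between 0.5 and 2 in Spns1 KO, and Sdha, Cox6a2, Cox6b2, Cox6c, Cox7c and Atp5l are filled in red alone.

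**Figure D2:**
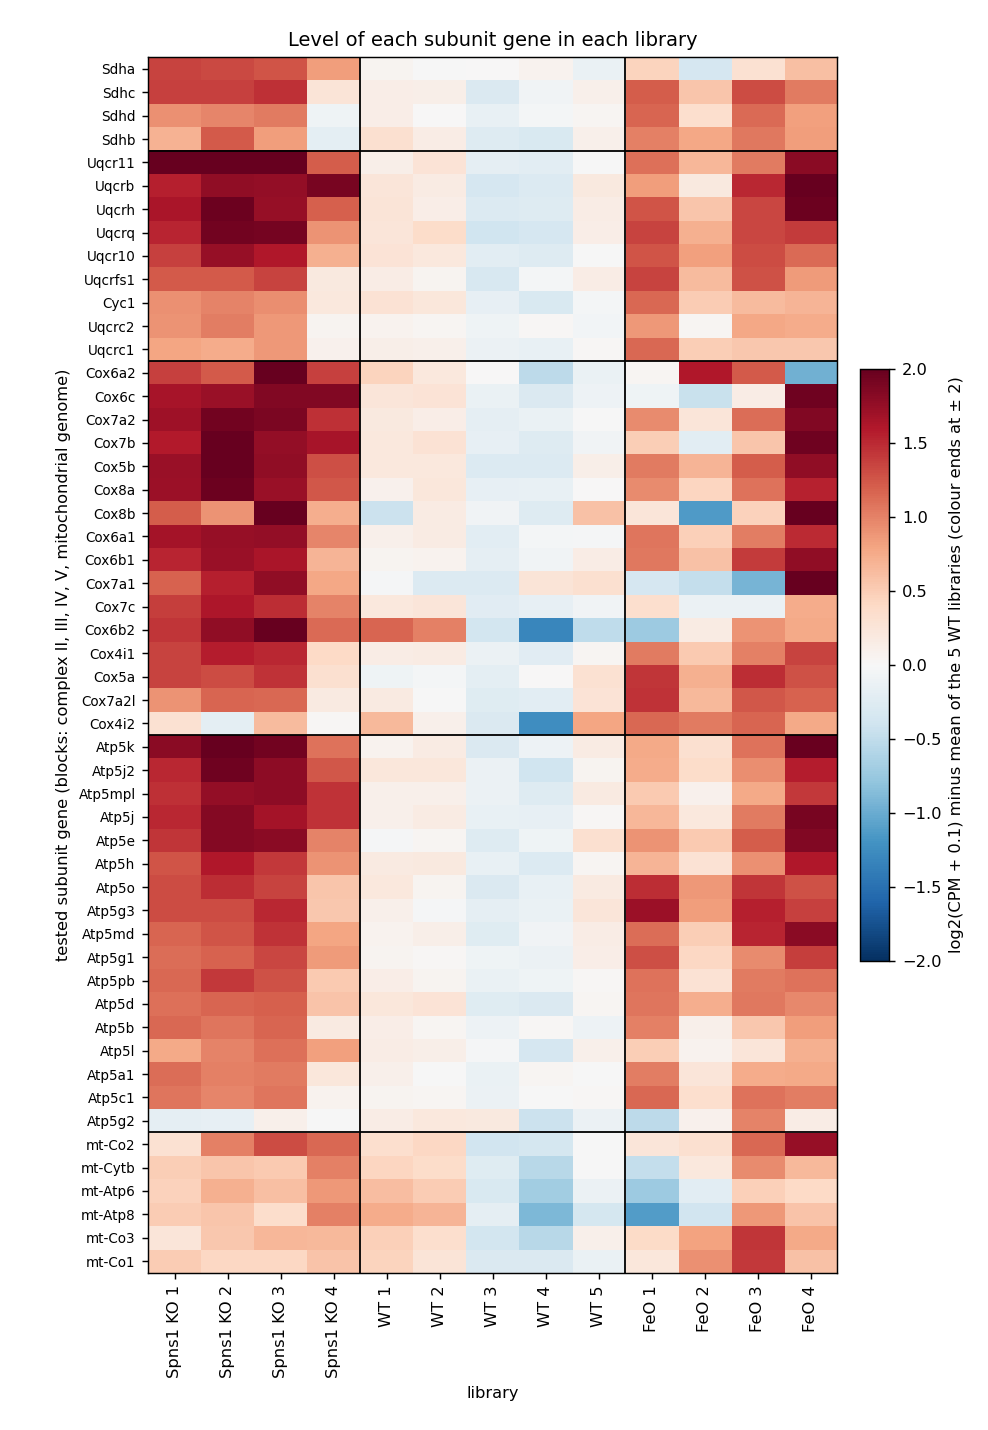
Level of each tested subunit gene (rows) in each of the 13 libraries (columns), as log2(CPM + 0.1) minus the mean of the 5 WT libraries (colour, ending at 2 each way). Spns1 KO 4 is paler than the other Spns1 KO libraries over the longer subunits, and FeO 2 is the palest FeO library. FeO 4 is the darkest FeO library for subunits such as Cox6c, Cox7b and Uqcrb.

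Start regions of nuclear subunit genes are shown because the members moved together. RefSeq (GRCm38.p6) gave a window of 250 bases before to 50 bases after the start for 35 of the 46 nuclear members tested. The other 11 are Atp5a1, Atp5mpl, Cox4i1, Cox4i2, Cox6a2, Cox6c, Cyc1, Sdhc, Uqcrb, Uqcrc2 and Uqcrq. Since under 80% of the members have a window, a statement about the whole set would be void, and only the matched ones are described. The core of the binding motif of NRF1, a regulator of nuclear genes for mitochondrial proteins, was searched as GCATGCGC on both strands, and the core bound by ETS factors such as GABPA as CCGGAAG. Atp5c1, Atp5d and Atp5j had windows at more than a single start. A member was counted where any of its windows held the core, as for the ETS core in Atp5j. The NRF1 core stood in 7 of the 35 members, Atp5g2, Atp5k, Atp5l, Cox6a1, Sdhb, Uqcr11 and Uqcrc1. That core was held by 3.05% of all 27025 genes with a window and by 5.17% of the 12365 tested genes among them. The ETS core stood in 13 of the 35 (9.93% of all genes with a window, 17% of the tested ones). CCAAT stood in 19 (41.1% and 42.6%) and TATAAA in 3 (15.7% and 10.5%). A match is a description of letters and no evidence of binding.

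One subunit of each complex whose window held both cores is shown, followed by Sdha and Cox7c, whose windows held neither and whose levels differed between the models. Capitals mark the NRF1 and ETS cores on either strand, and where 2 NRF1 matches on opposite strands overlap they form one longer run. The windows lie at chr4:140961021-140961320 (plus strand) for Sdhb, chr10:80406772-80407071 (minus strand) for Uqcr11, chr5:115348909-115349208 (minus strand) for Cox6a1, chr5:108434350-108434649 (minus strand) for Atp5k, chr13:74350191-74350490 (minus strand) for Sdha and chr13:86046746-86047045 (minus strand) for Cox7c.
Sdhb: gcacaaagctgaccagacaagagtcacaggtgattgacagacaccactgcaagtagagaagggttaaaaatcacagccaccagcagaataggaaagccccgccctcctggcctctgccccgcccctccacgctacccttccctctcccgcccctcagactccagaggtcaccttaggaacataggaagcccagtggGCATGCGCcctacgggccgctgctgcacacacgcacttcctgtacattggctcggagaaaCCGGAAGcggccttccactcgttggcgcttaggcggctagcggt
Uqcr11: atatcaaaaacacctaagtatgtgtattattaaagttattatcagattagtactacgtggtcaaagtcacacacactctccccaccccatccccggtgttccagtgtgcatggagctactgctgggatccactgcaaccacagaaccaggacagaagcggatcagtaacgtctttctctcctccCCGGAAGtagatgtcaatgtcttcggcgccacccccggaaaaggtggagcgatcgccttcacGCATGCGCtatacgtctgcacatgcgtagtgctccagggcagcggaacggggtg
Cox6a1: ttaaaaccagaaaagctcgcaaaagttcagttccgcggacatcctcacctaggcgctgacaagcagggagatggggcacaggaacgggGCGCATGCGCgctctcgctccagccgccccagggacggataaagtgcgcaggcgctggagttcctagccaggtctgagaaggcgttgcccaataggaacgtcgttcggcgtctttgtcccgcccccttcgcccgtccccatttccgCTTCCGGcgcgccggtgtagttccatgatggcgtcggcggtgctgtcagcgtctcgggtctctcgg
Atp5k: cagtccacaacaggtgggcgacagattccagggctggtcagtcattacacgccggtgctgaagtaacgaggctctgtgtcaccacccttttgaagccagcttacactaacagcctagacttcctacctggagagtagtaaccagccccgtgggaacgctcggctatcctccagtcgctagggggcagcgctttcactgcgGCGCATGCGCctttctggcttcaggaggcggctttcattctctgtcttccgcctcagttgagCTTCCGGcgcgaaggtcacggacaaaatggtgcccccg
Sdha: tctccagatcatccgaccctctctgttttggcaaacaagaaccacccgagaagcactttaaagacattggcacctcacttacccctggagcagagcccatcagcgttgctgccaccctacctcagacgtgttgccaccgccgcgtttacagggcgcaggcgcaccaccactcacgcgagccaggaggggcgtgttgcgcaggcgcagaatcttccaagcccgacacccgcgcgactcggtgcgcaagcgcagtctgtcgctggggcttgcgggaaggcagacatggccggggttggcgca
Cox7c: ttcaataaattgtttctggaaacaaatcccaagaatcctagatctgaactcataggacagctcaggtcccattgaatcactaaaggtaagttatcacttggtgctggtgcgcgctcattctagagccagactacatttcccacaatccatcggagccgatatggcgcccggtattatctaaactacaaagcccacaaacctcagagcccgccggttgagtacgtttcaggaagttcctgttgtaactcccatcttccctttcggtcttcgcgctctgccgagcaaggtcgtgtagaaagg

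All 4 subunits of complex II were upregulated in Spns1 KO, and Sdhb, Sdhc and Sdhd in FeO. The median log2 fold change reached 0.98 for Spns1 KO and 0.90 for FeO. Sdha, the flavoprotein that oxidizes succinate, spans 74322254 to 74350280 of chromosome 13 (GRCm38, mm10, as for all positions here). It was at 648, 629, 602 and 449.5 CPM in Spns1 KO 1 to 4, at 264, 253, 254, 266 and 229 CPM in WT 1 to 5 and at 344, 201, 311 and 383 CPM in FeO 1 to 4. Every Spns1 KO library exceeded every other library, and FeO 2 lay below all WT libraries while the other FeO libraries lay above them. Fitted against WT, its log2 fold change reached 1.20 for Spns1 KO (SE 0.19, edgeR adjusted p = 0.000689) and 0.29 for FeO (SE 0.19, edgeR adjusted p = 0.21). The direct difference of Spns1 KO minus FeO was 0.91 (SE 0.20, edgeR adjusted p = 0.00949), and it stayed called in each fit that left out 1 library and under every other alternative (adjusted p 0.000188 to 0.0496). None of its 31-base sequences occurs in another gene.

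Sdhb, the iron-sulfur subunit (chromosome 4 from 140961203 to 140979193), was at 109.8, 159, 121 and 58.9 CPM in Spns1 KO 1 to 4, at 84.4, 75.2, 56.2, 54.6 and 72.3 CPM in WT 1 to 5 and at 137, 115, 140.3 and 121 CPM in FeO 1 to 4. All FeO libraries stood above WT, and Spns1 KO 4 lay inside the WT range. The log2 fold change reached 0.71 for Spns1 KO and 0.90 for FeO (SE 0.22 and 0.22, edgeR adjusted p = 0.0329 and 0.00511). The Spns1 KO call of Sdhb was lost when Spns1 KO 1, 2 or 3 was left out (0.72, 0.50 and 0.67) and when WT 3 or 4 was (0.67 and 0.66). Sdhd, one of the membrane anchors that hold heme b (chromosome 9 from 50596357 to 50603812), averaged 140.2 ± 42.3 CPM in Spns1 KO (SD, n = 4), 82.1 ± 6.03 in WT (SD, n = 5) and 153 ± 37.3 in FeO (SD, n = 4), with Spns1 KO 4 at 77.4 CPM inside the WT range. Against WT, the log2 fold change of Sdhd reached 0.77 for Spns1 KO and 0.90 for FeO, and the Spns1 KO call was lost without Spns1 KO 1, 2 or 3 (0.73, 0.70 and 0.68). Sdhc, the other anchor (chromosome 1 from 171127165 to 171150603), averaged 94.6 ± 30.0 CPM in Spns1 KO (SD, n = 4), 41.8 ± 5.05 in WT (SD, n = 5) and 86.4 ± 18.4 in FeO (SD, n = 4), a log2 fold change of 1.18 and 1.05, and no library of either model overlapped WT.

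Per kilobase of transcript, the WT level of Sdha was 87.3 CPM, of Sdhd 66.7, of Sdhb 60.0 and of Sdhc 13.2. In Spns1 KO these levels were 201 for Sdha, 114 for Sdhd, 98.2 for Sdhb and 29.8 for Sdhc, and in FeO 107 for Sdha, 124 for Sdhd, 112 for Sdhb and 27.2 for Sdhc, so Sdha led the complex in WT and Spns1 KO and ranked behind Sdhd and Sdhb in FeO.

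**Figure D3:**
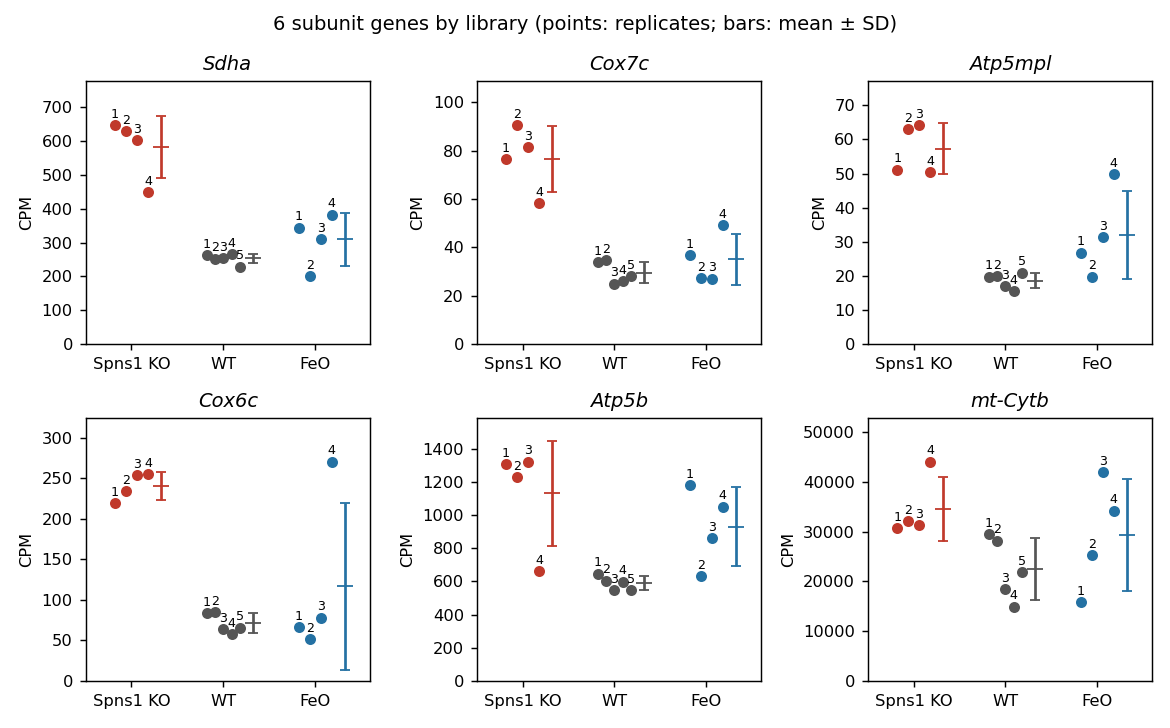
CPM by library of Sdha, Cox7c, Atp5mpl, Cox6c, Atp5b and mt-Cytb in Spns1 KO (red), WT (grey) and FeO (blue), with the replicate number at each point and the mean ± SD beside each group. The Spns1 KO libraries of Sdha and Cox7c lie above all others, while Cox6c in FeO is set by 1 library at 271 CPM.

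All 9 nuclear subunits of complex III were upregulated in both models, with median log2 fold changes of 1.39 for Spns1 KO and 1.13 for FeO. In the catalytic core, Uqcrfs1, the Rieske iron-sulfur protein (chromosome 13 from 30540308 to 30545362), was at 151, 150.2, 164 and 73.8 CPM in Spns1 KO 1 to 4, at 71.2, 66.8, 51.6, 62.6 and 71.3 CPM in WT 1 to 5 and at 164, 99.3, 156 and 116 CPM in FeO 1 to 4. No library of either model overlapped WT, though Spns1 KO 4 was barely above it. The log2 fold change reached 1.06 for Spns1 KO and 1.05 for FeO (SE 0.22 and 0.22, edgeR adjusted p = 0.00382 and 0.00183). Cyc1, cytochrome c1 (chromosome 15 from 76343523 to 76346260), averaged 139 ± 30.9 CPM in Spns1 KO (SD, n = 4), 80.8 ± 14.1 in WT (SD, n = 5) and 135 ± 27.9 in FeO (SD, n = 4). In the fit, the log2 fold change was 0.78 and 0.74, and Spns1 KO 4, at 92.8 CPM, lay inside the WT range of 64.9 to 97.1 CPM.

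The core proteins Uqcrc1 and Uqcrc2, which face the matrix, rose least among the nuclear subunits of complex III. Uqcrc1 (chromosome 9 from 108936633 to 108949623) averaged 75.0 ± 16.6 CPM in Spns1 KO (SD, n = 4), 47.8 ± 4.00 in WT (SD, n = 5) and 77.9 ± 18.5 in FeO (SD, n = 4), log2 fold changes of 0.65 and 0.70. The Spns1 KO call of Uqcrc1 was lost without Spns1 KO 1, 2 or 3 (0.60, 0.62 and 0.57) and with scaling to library totals (0.52). Uqcrc2 (chromosome 7 from 120635176 to 120659524) had log2 fold changes of 0.76 and 0.64, and its Spns1 KO call was lost without Spns1 KO 1 or 2 (0.71 and 0.66). The small subunits at the edge of the complex showed larger differences. Uqcr11 (chromosome 10 from 80402997 to 80406830) was at 54.7, 67.1, 59.3 and 31.8 CPM in Spns1 KO 1 to 4, at 14.8, 16.5, 12.0, 11.8 and 13.6 CPM in WT 1 to 5 and at 29.4, 21.7, 28.2 and 48.0 CPM in FeO 1 to 4. Both models lay wholly above WT, and only FeO 4 among FeO libraries reached the Spns1 KO range. Against WT, the log2 fold change of Uqcr11 reached 1.95 for Spns1 KO, the largest in complex III, and 1.21 for FeO (SE 0.24 and 0.24, edgeR adjusted p = 0.000373 and 0.0012). Uqcrh, the hinge protein that binds cytochrome c1 (chromosome 4 from 116066965 to 116075071), had the largest log2 fold change of complex III in FeO, 1.34, and 1.64 in Spns1 KO.

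Complex IV held 13 upregulated nuclear members of 16 tested in Spns1 KO and 9 in FeO, with median log2 fold changes of 1.50 and 1.05. Of the 7 nuclear members of complex IV not called in FeO, 5 are the tissue-restricted isoforms Cox4i2, Cox6a2, Cox6b2, Cox7a1 and Cox8b, and the others were Cox6c and Cox7c. Cox4i1, the first nuclear subunit to join the core (chromosome 8 from 120668222 to 120674207), was at 168, 194, 186 and 86.7 CPM in Spns1 KO 1 to 4, at 72.4, 73.6, 60.4, 55.7 and 67.3 CPM in WT 1 to 5 and at 135, 93.7, 132 and 167 CPM in FeO 1 to 4. Neither model overlapped WT, and Spns1 KO 4 was lower than every FeO library. Its log2 fold change reached 1.27 for Spns1 KO and 1.00 for FeO (SE 0.22 and 0.22, edgeR adjusted p = 0.00124 and 0.00231).

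Cox7c, a single-helix subunit of complex IV (chromosome 13 from 86044816 to 86046904), was at 76.4, 90.6, 81.5 and 58.2 CPM in Spns1 KO 1 to 4, at 33.8, 34.8, 25.0, 26.2 and 28.0 CPM in WT 1 to 5 and at 36.9, 27.2, 27.1 and 49.3 CPM in FeO 1 to 4. Every Spns1 KO library exceeded every other library, and FeO 2 and FeO 3 lay within the WT range. The log2 fold change of Cox7c reached 1.37 for Spns1 KO (SE 0.19, edgeR adjusted p = 0.00048) and 0.25 for FeO (SE 0.19, edgeR adjusted p = 0.304). Spns1 KO exceeded FeO by 1.13 (SE 0.21, edgeR adjusted p = 0.00476), a call kept in each fit without 1 library and in all other alternatives (adjusted p 2.59e-05 to 0.0259). Its counts are less certain than those of Sdha, since 55.7% of its 31-base stretches are found elsewhere too, foremost in the pseudogene Cox7c-ps1.

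Cox6c, another small subunit (chromosome 15 from 35925886 to 35938246), was at 219.6, 234, 254 and 255 CPM in Spns1 KO 1 to 4, at 83.3, 85.1, 64.1, 57.7 and 65.8 CPM in WT 1 to 5 and at 66.4, 51.7, 78.3 and 271 CPM in FeO 1 to 4. FeO 4 exceeded every Spns1 KO library, while FeO 1 and FeO 3 lay within the WT range and FeO 2 below it. Against WT, the log2 fold change of Cox6c reached 1.76 for Spns1 KO (SE 0.37, edgeR adjusted p = 0.00415), the largest in complex IV among members averaging at least 100 counts, and 0.71 in FeO (SE 0.36, edgeR adjusted p = 0.12). Without FeO 4 the FeO value of Cox6c was -0.09, and without FeO 2 it was 0.97 and called. Cox7b, likewise a small subunit (chromosome X from 106015700 to 106022450), stood at 84.6, 52.1, 88.6 and 232 CPM in FeO 1 to 4 against at most 73.3 CPM in WT, so that FeO 2 lay within the WT range and the other 3 above it. Its FeO call at 0.91 was lost without FeO 4 (0.33), WT 3 (0.88) or WT 4 (0.86), whereas its log2 fold change of 1.74 for Spns1 KO stayed called without any 1 library. Cox6b1, which sits on the intermembrane side (chromosome 7 from 30616861 to 30626151), had the largest log2 fold change of complex IV in FeO among members averaging at least 100 counts, 1.27, and 1.44 in Spns1 KO.

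Several subunits of complex IV exist as isoform pairs, and the form known from most tissues supplied nearly all the RNA of the Cox4i and Cox6a pairs but not of every pair. Per length, Cox6b1 held 79.9% to 95.5% of its pair with Cox6b2 in WT, 86.1% to 90.2% in Spns1 KO and 92.1% to 96.9% in FeO. On the same scale, Cox4i1 made up 99.5% to 100% of the Cox4i1 and Cox4i2 level in every library, and Cox6a1 at least 99.2% of its pair with Cox6a2, the heart and muscle form. Cox4i2, a form known from lung, was at 0.108 to 0.267 CPM in Spns1 KO, 0 to 0.309 CPM in WT and 0.300 to 0.434 CPM in FeO. Fitted against WT, its log2 fold change reached 0.08 for Spns1 KO and 1.20 for FeO (edgeR adjusted p = 0.931 and 0.0863). Cox6a2 was called in Spns1 KO at a log2 fold change of 2.21, on a mean of 0.489 ± 0.21 CPM in Spns1 KO (SD, n = 4) against 0.0987 ± 0.0482 CPM in WT (SD, n = 5), with no more than 27 counts in any library. That call of Cox6a2 was lost without Spns1 KO 3 (1.89), WT 3 (2.20) or WT 4 (2.03), and Cox6a2 was called in FeO when FeO 4 was left out (1.62). Cox6b2, known from testis, was at 8.85 to 17.5 CPM in Spns1 KO, 1.55 to 9.09 CPM in WT and 2.36 to 7.49 CPM in FeO, and its Spns1 KO call at 1.37 was lost without Spns1 KO 1, 2 or 3 (1.44, 1.33 and 1.18) or WT 3, 4 or 5 (1.26, 1.16 and 1.24).

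The Cox7a forms shifted against each other in Spns1 KO, while in FeO the share of Cox7a2 spanned the WT range. Cox7a2, the form of most tissues (chromosome 9 from 79755361 to 79759878), was at 92.0, 108, 105 and 78.6 CPM in Spns1 KO 1 to 4, at 32.7, 31.1, 25.0, 25.9 and 28.2 CPM in WT 1 to 5 and at 54.7, 33.5, 62.0 and 103 CPM in FeO 1 to 4. Cox7a2l, a related protein that joins complexes III and IV (chromosome 17 from 83501918 to 83517330), was at 92.2, 111, 109.6 and 56.2 CPM in Spns1 KO 1 to 4, at 56.2, 49.3, 41.7, 42.5 and 59.7 CPM in WT 1 to 5 and at 135, 77.6, 117 and 112 CPM in FeO 1 to 4. Spns1 KO was wholly above WT for Cox7a2 alone, and FeO for both. The log2 fold change was 1.75 for Cox7a2 and 0.89 for Cox7a2l in Spns1 KO, and 1.15 for each in FeO, all called. Per length, Cox7a2 was 58.0% to 67.0% of the Cox7a level in Spns1 KO, 41.6% to 49.1% in WT and 39.3% to 56.2% in FeO, a difference given here without a test. Cox7a1, the heart and muscle form, was at 2.52 to 5.18 CPM in Spns1 KO, 1.17 to 1.81 CPM in WT and 0.71 to 6.82 CPM in FeO, where FeO 4 alone lay above WT. It was not called in either model (log2 fold changes 1.41 and 0.72), though the Spns1 KO call was gained without Spns1 KO 4 (1.57) or without FeO 2, 3 or 4 (1.43, 1.41 and 1.43), and the FeO value was -0.59 without FeO 4. Cox8a, the form of most tissues (chromosome 19 from 7215153 to 7217616), had log2 fold changes of 1.67 for Spns1 KO and 1.05 for FeO, both called. Cox8b, the muscle form, averaged 1.26 ± 0.776 CPM in Spns1 KO (SD, n = 4), 0.417 ± 0.151 in WT (SD, n = 5) and 0.819 ± 0.852 in FeO (SD, n = 4), and was called in neither model (1.58 and 0.97). The Spns1 KO call of Cox8b was gained without Spns1 KO 4 (1.77), FeO 2 (1.60) or FeO 4 (1.60), and the FeO call without FeO 2 (1.34).

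Of 17 nuclear members of complex V, 16 passed as upregulated for Spns1 KO and 15 in FeO, with median log2 fold changes of 1.18 and 0.94. Atp5b, the catalytic beta subunit (chromosome 10 from 128083273 to 128090391), was at 1307, 1230.2, 1323 and 663 CPM in Spns1 KO 1 to 4, at 648, 605, 549, 599 and 546 CPM in WT 1 to 5 and at 1181, 634, 859 and 1051 CPM in FeO 1 to 4. Spns1 KO 4 stood just above the highest WT library and FeO 2 just below it. Against WT, the log2 fold change of Atp5b reached 0.94 for Spns1 KO and 0.66 for FeO (SE 0.22 and 0.22, edgeR adjusted p = 0.00845 and 0.0262), and the FeO call was lost without FeO 1 (0.54) or WT 3 (0.65), with a replicate block (0.62) and with the length and GC trend taken out (0.41). Atp5a1, the alpha subunit that forms the catalytic ring with beta, averaged 511 ± 126 CPM in Spns1 KO (SD, n = 4), 276 ± 15.7 in WT (SD, n = 5) and 455 ± 97.3 in FeO (SD, n = 4). Both models lay above WT in every library, with log2 fold changes of 0.89 and 0.72.

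Atp5g1, Atp5g2 and Atp5g3 encode the same mature subunit c, which forms the rotor ring. Atp5g3 (chromosome 2 from 73908447 to 73911326) was at 239, 238, 273 and 139 CPM in Spns1 KO 1 to 4, at 104, 94.6, 84.6, 87.6 and 114 CPM in WT 1 to 5 and at 315, 173, 282 and 249.6 CPM in FeO 1 to 4. Both models lay above WT, and the log2 fold change of Atp5g3 reached 1.20 for Spns1 KO and 1.39 for FeO, the largest of any member in FeO (SE 0.21 and 0.21, edgeR adjusted p = 0.00128 and 0.000444). Atp5g1 (chromosome 11 from 96068852 to 96075670) had log2 fold changes of 1.13 and 1.05. Atp5g2 was at 4.55 to 5.58 CPM in Spns1 KO, 3.82 to 5.98 CPM in WT and 3.57 to 10.4 CPM in FeO, and its log2 fold changes of -0.08 and 0.26 did not pass the test. Per length, its share of the family was 2.09% to 3.51% in Spns1 KO, 4.39% to 6.85% in WT and 1.32% to 4.28% in FeO. All 31-base sequences of Atp5g2 and 57.6% of those of Atp5g1 also occur in other genes.

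The largest log2 fold changes of complex V in Spns1 KO were those of Atp5k, Atp5j2 and Atp5mpl. Atp5k, subunit e at the contact between paired ATP synthases (chromosome 5 from 108433244 to 108434448), averaged 40.4 ± 10.3 CPM in Spns1 KO (SD, n = 4), 12.0 ± 1.56 in WT (SD, n = 5) and 26.9 ± 14.3 in FeO (SD, n = 4), log2 fold changes of 1.75 and 1.17, of which the FeO value was 0.77 without FeO 4. Atp5mpl, a small proteolipid subunit (chromosome 12 from 111961375 to 111966977), was at 51.2, 63.1, 64.3 and 50.5 CPM in Spns1 KO 1 to 4, at 19.8, 20.0, 17.1, 15.5 and 21.0 CPM in WT 1 to 5 and at 26.8, 19.8, 31.4 and 49.8 CPM in FeO 1 to 4. Spns1 KO lay above all other libraries, FeO 4 just beneath it, and FeO 2 inside the WT range. In the fit, the log2 fold change reached 1.62 for Spns1 KO and 0.77 for FeO (SE 0.21 and 0.21, edgeR adjusted p = 0.000401 and 0.00892), the FeO value being 0.50 and still called without FeO 4. The Spns1 KO minus FeO difference of Atp5mpl was 0.84 (SE 0.22, edgeR adjusted p = 0.0228), a call lost without Spns1 KO 2 (0.79) or FeO 1 (0.78).

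Atp5l, subunit g (chromosome 9 from 44912557 to 44920742), was at 104, 123, 132 and 109 CPM in Spns1 KO 1 to 4, at 68.3, 66.8, 60.5, 48.7 and 66.3 CPM in WT 1 to 5 and at 86.5, 64.5, 72.7 and 101 CPM in FeO 1 to 4. Spns1 KO lay above every other library. The log2 fold change of Atp5l reached 0.91 for Spns1 KO (SE 0.16, edgeR adjusted p = 0.0012) and 0.39 for FeO (SE 0.16, edgeR adjusted p = 0.0551). Spns1 KO exceeded FeO by 0.53 (SE 0.17, edgeR adjusted p = 0.0443), a call lost in 11 of the 13 fits without 1 library, all but those without WT 4 or FeO 4, with differences of 0.44 to 0.65 over the 13. Other genes share 85.4% of its 31-base sequences.

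Tested directly, 4 of the 52 members differed between the models, Sdha, Cox7c, Atp5mpl and Atp5l, each higher in Spns1 KO, where 6.76% of all genes tested were. None was higher in FeO, where 8.1% of all genes tested were. Of the 46 nuclear members, 35 had a larger log2 fold change in Spns1 KO than in FeO, and the median difference was 0.29. Over all genes tested, 51.94% did, and the median difference was 0.03. For Cox6a2, Cox6b2, Cox6c, mt-Co1 and mt-Co3, called in one model alone, the direct contrast did not pass the limits. The count rested on single libraries: without FeO 4 it was 17, without Spns1 KO 4 it was 7, without both it was 20, and without Spns1 KO 2 or FeO 1 it was 2. DESeq2 gave 9 in place of edgeR's 4. The members gained without FeO 4 were higher in Spns1 KO and included Cox6c (1.87), Cox7b (1.43) and Uqcr11 (1.00).

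**Figure D4:**
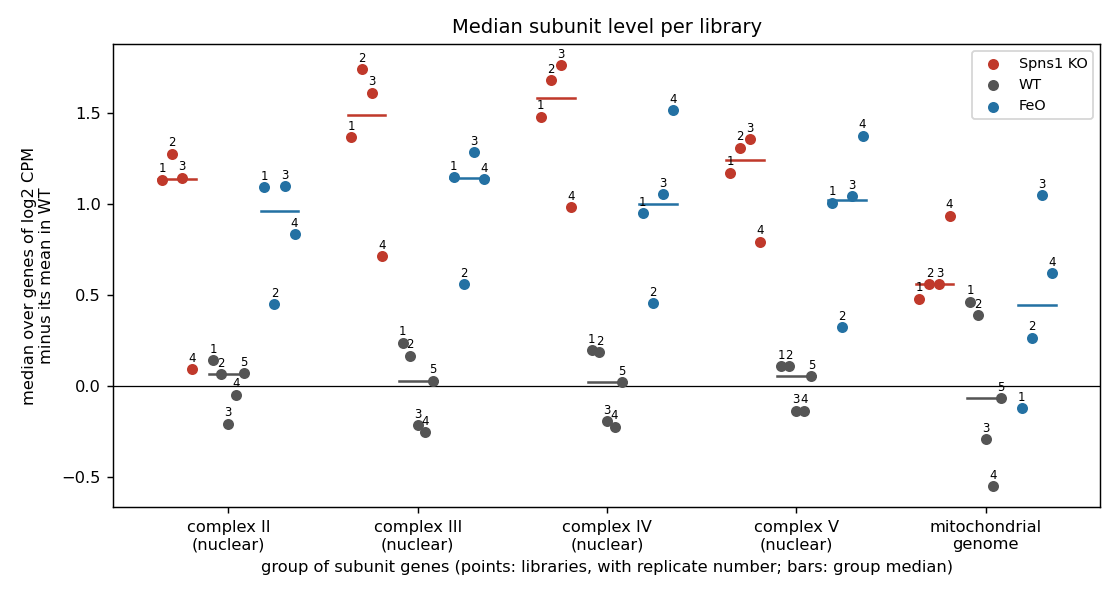
Median over the tested genes of each complex (nuclear members) and of the 6 mitochondrially encoded genes of log2 CPM minus its WT mean (vertical axis), 1 point per library with its replicate number, group medians as bars. For complexes III to V every Spns1 KO and FeO library lies above every WT library; for complex II Spns1 KO 4 (0.09) lies inside the WT range, and for the mitochondrial genome the groups overlap.

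The 6 mitochondrially encoded members had smaller median log2 fold changes than the nuclear ones, 0.54 for Spns1 KO and 0.60 for FeO. All 6 had a positive fitted log2 fold change in Spns1 KO (46.79% of all genes tested did), and 5 in FeO (49.53%). In Spns1 KO 1 of them (mt-Co2) was upregulated, where 14% of all genes tested were. In FeO 3 (mt-Co1, mt-Co2 and mt-Co3) were upregulated, where 22.4% of all genes tested were. No test compared the gene classes. WT libraries differed strongly among themselves for these genes. mt-Cytb, cytochrome b of complex III (mitochondrial genome, 14145 to 15288), was at 30728, 32109, 31368 and 44111 CPM in Spns1 KO 1 to 4, at 29526, 28202, 18419, 14942 and 21869 CPM in WT 1 to 5 and at 15778, 25297, 42043 and 34271 CPM in FeO 1 to 4. Spns1 KO lay above WT and FeO ran through the whole range, with the log2 fold change 0.61 in Spns1 KO and 0.38 in FeO (SE 0.31 and 0.31, edgeR adjusted p = 0.166 and 0.334). Spns1 KO 4, the lowest Spns1 KO library for most nuclear members, was the highest for 4 of the 6 mitochondrially encoded ones, and FeO 1 was the lowest FeO library for all 6.

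mt-Co1, the subunit of complex IV that holds heme a (mitochondrial genome, 5328 to 6872), was at 42177, 39461, 39683 and 44148 CPM in Spns1 KO 1 to 4, at 40491, 35475, 24387, 24312 and 27083 CPM in WT 1 to 5 and at 34802, 56200.2, 79512 and 44759 CPM in FeO 1 to 4. Both models overlapped WT. Against WT, the log2 fold change reached 0.45 for Spns1 KO (SE 0.29, edgeR adjusted p = 0.271) and 0.83 for FeO (SE 0.29, edgeR adjusted p = 0.0293), and the FeO call of mt-Co1 was lost without FeO 3 (0.58) or WT 3 (0.77), with a replicate block (0.77) and with only WT and FeO fitted (0.83). mt-Co3 (8607 to 9390), the third core subunit, had log2 fold changes of 0.48 and 0.84, and its FeO call was lost without FeO 3 (0.61) or WT 3 (0.77), with a replicate block (0.84) and with only WT and FeO fitted (0.84). mt-Co2 (7013 to 7696), which takes electrons from cytochrome c, was called in both models at 0.95 and 0.96 (edgeR adjusted p = 0.0483 and 0.0273). The Spns1 KO call of mt-Co2 was lost without Spns1 KO 2, 3 or 4 (0.95, 0.83 and 0.90), without any 1 of the WT libraries (1.03, 1.06, 0.89, 0.89 and 0.96 without WT 1 to 5) or without FeO 3 (0.95), and the FeO call without WT 3 or 4 (0.89 and 0.89) or FeO 3 or 4 (0.91 and 0.62).

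Nuclear copies of mitochondrial sequence share reads with these genes. Gm28661 holds 99.5% of the 31-base sequences of mt-Co2 and was assigned 4339019 counts over all libraries, against 4362017 for mt-Co2 itself, and Gm29216, with 29.6% of those of mt-Co1, was assigned 2655683. Gm10925 shares 99.5% with mt-Atp6 and Gm28437 99.9% with mt-Co3. With the counts of genes sharing over 50% added to each, mt-Co2 was no longer called in Spns1 KO (0.91) or FeO (0.82). Of the proton channel of ATP synthase, mt-Atp6 (7927 to 8607) averaged 27960.0 ± 3266 CPM in Spns1 KO (SD, n = 4), 18661 ± 6986 in WT (SD, n = 5) and 18394 ± 6614 in FeO (SD, n = 4), log2 fold changes of 0.58 and -0.02. The FeO sign of mt-Atp6 turned under 7 alternatives. mt-Atp8 (7766 to 7969), the small accessory subunit that overlaps mt-Atp6, had log2 fold changes of 0.49 and 0.05. None of these 4 values passed the limits. Libraries were selected for poly-A tails, so these levels cover polyadenylated mitochondrial RNA.

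Exact two-sided permutation tests of mean log2 CPM (prior count 2), 4 libraries against 5, were made for 9 core subunits in both models, 18 tests in all, with 0.00794 the smallest p that the 126 arrangements allow. That smallest p was reached in Spns1 KO by Sdha, Uqcrfs1, Cox4i1 and Atp5b, and in FeO by Sdhb, Uqcrfs1, Cyc1 and Cox4i1 (0.0179 each after Benjamini-Hochberg adjustment over the 18 permutation tests). Cyc1 in Spns1 KO (exact p = 0.0238, adjusted 0.0429) and Atp5b in FeO (exact p = 0.0159, adjusted 0.0317) also passed. The other 8 permutation tests did not, among them Sdha in FeO (exact p = 0.206, adjusted 0.232), Sdhb in Spns1 KO (exact p = 0.0635, adjusted 0.0816), and mt-Co1 and mt-Cytb in both models. Leaving out 1 library allows fewer arrangements. Cyc1 in Spns1 KO then had an unadjusted exact p under 0.05 only without Spns1 KO 4 (0.0179), with 0.0536 to 0.0857 otherwise. Atp5b in FeO had an exact p of 0.0571 without WT 2, 3, 4 or 5.

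Members with short transcripts differed most from WT. The 32 nuclear members with transcripts under 1000 bases centred on a log2 fold change of 1.50 for Spns1 KO and 1.11 for FeO, whereas the 14 with 1000 bases or more had 0.89 and 0.90. Across the 46 nuclear genes, Spearman's rho of log2 fold change with transcript length was -0.487 in Spns1 KO and -0.323 in FeO, as a description across genes that share libraries. Taking out of each library its trend with length and GC over all genes lowered the medians, in Spns1 KO to 0.93 for complex III, 1.06 for complex IV and 0.87 for complex V, and in FeO to 0.52 for complex II, 0.74 for complex III, 0.59 for complex IV and 0.59 for complex V. With the trend taken out, the calls numbered 37 for Spns1 KO and 31 for FeO, and Spearman's rho with length was -0.259 and -0.105. The difference by length was also seen by library: Spns1 KO 4 had a median of 0.19 above WT over the longer members and 0.94 over the shorter, and FeO 4 had 0.84 and 1.51. Among the 21 nuclear members with at most 5% of sequence shared with other genes, 18 passed as upregulated for Spns1 KO and 16 in FeO, with medians of 1.20 and 0.94.

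**Figure D5:**
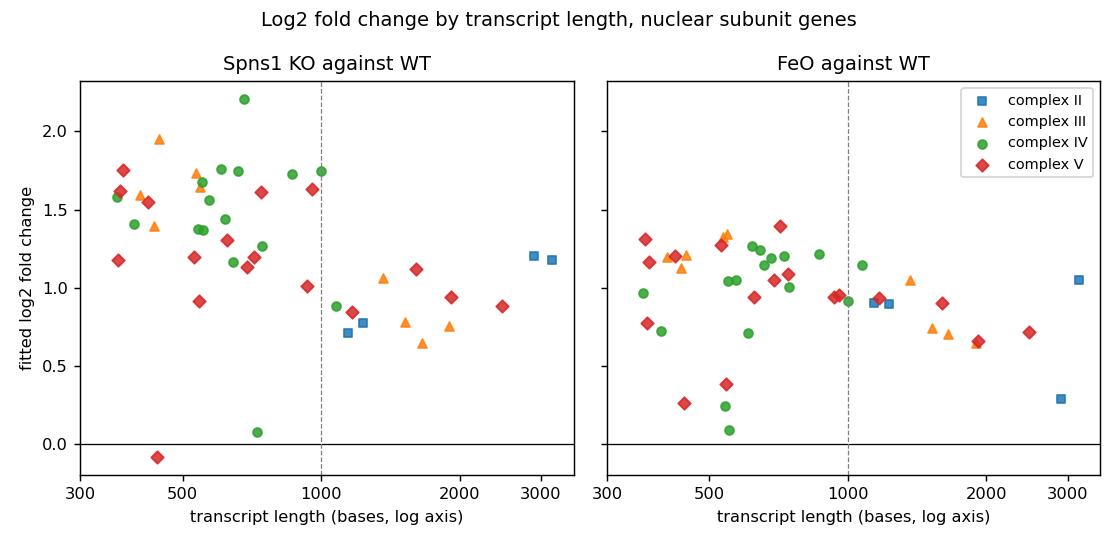
Fitted log2 fold change against WT (vertical axis) of the 46 nuclear members by transcript length in bases (log axis), in Spns1 KO (left) and FeO (right), with one marker shape per complex and a dashed line at 1000 bases. The points right of the line lie lower in Spns1 KO (median 0.89) than those left of it (1.50), with a smaller gap in FeO (0.90 and 1.11).

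Genes outside the rule that build or accompany these complexes were counted from lists of such genes. Of 37 assembly factors tested, 17 were called upregulated for Spns1 KO, where 14% of all genes tested were, and 21 for FeO, where 22.4% were, and none was called downregulated by edgeR or DESeq2, though 1 in each model was lower at an unadjusted p under 0.05. Of the 4 assembly factors of complex II, edgeR called none in Spns1 KO (1 at an unadjusted p under 0.05, and 1 by DESeq2) and 3 in FeO. Sdhaf1, which inserts iron-sulfur clusters into SDHB, had a log2 fold change of 0.40 for Spns1 KO and 1.45 for FeO, and Sdhaf2, which adds flavin to SDHA, 0.22 and 0.84. Both were lower in Spns1 KO than in FeO when compared directly, with differences of -1.05 and -0.63 (edgeR adjusted p = 0.0197 and 0.0278). Bcs1l, which places the Rieske protein in complex III, was upregulated in both at 1.06 and 1.27, as was Uqcc2, needed for cytochrome b, at 1.22 and 1.67. Of 22 complex IV assembly factors 11 were upregulated in each model, among them Cox14 at 1.35 and 1.34 and Coa3 at 1.23 and 1.81, which both act on newly made COX1. Of 5 for complex V, 3 were upregulated in each, with Fmc1 at 1.54 and 1.55. Without Spns1 KO 2 the Spns1 KO count of assembly factors was 11.

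The electron carrier Cycs (cytochrome c) was upregulated in both models at 0.92 and 1.00, and so were the complex IV subunit Ndufa4 at 1.92 and 1.25 and Atpif1, the inhibitor of ATP synthase, at 1.51 and 0.66. Of 16 factors of mitochondrial biogenesis and mitochondrial gene expression, 3 were upregulated and 2 downregulated in Spns1 KO and 3 upregulated and 5 downregulated in FeO. Of all genes tested, 14% were called upregulated and 7.55% downregulated for Spns1 KO, against 22.4% and 19.7% for FeO. Ppargc1a, the coactivator known for raising nuclear genes of the respiratory chain, was downregulated in both, with log2 fold changes of -0.87 for Spns1 KO and -0.93 for FeO. In FeO, Ppargc1b (-1.33), Pprc1 (-1.41), Nrf1 (-0.55) and Gabpa (-0.54) were also downregulated. Esrra (0.53 and 0.71) and Slirp, which stabilizes mitochondrial mRNA (1.44 and 1.45), were upregulated in both, and Tfam had 0.01 and 0.22, neither called. For Slirp, 95.2% of the 31-base sequences also occur in other genes, so its counts are less certain. The Spns1 KO counts for this list ran from 1 to 3 upregulated and 1 to 4 downregulated when each library was left out, with 4 downregulated without Spns1 KO 4. None of the 7 mitochondrially encoded subunits of complex I was called by edgeR in either model, with medians of 0.42 and 0.18. In FeO 1 of these 7 was lower at an unadjusted p under 0.05 and by DESeq2.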

How the data were processed

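Biotin-captured, poly-A selected RNA of 13 kidney libraries was sequenced in pairs by the authors. The deposited table holds estimated counts, whole numbers for 35013 gene symbols, per the labels made with bcl2fastq 2.19 and kallisto 0.44.0 on GRCm38. The methods describe counting after genome alignment instead, which would treat shared sequence differently. Libraries were grouped by their labels. Total counts were 23068023 to 71296474, and p-values measure the spread between these libraries.

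Counts were fitted for the whole table with edgeR 4.0.16 in R 4.3.3 (TMM factors, filterByExpr, quasi-likelihood test, all 13 libraries in one fit, Benjamini-Hochberg over 16468 genes), and calls needed an adjusted p under 0.05 and a log2 fold change beyond 0.5, the study's own limits. CPM use TMM-scaled totals. The fit was also run on counts simulated independently for each gene and library, with no trend with length and no outlying library. That run therefore cannot show how the fit handles either. Alternatives were DESeq2 1.42.0, other scalings, no filter, 2 groups only, a replicate block, removal of a length and GC trend (mgcv 1.9.3), shared-sequence counts added, and each library left out. Transcript lengths, positions and shared 31-base sequences came from GENCODE annotation of GRCm38 and promoter windows from RefSeq. Python 3.11.15, numpy 2.4.6, pandas 2.3.3 and scipy 1.17.1 gave the exact permutation tests and summaries.

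The members and gene lists were chosen with earlier results of these data known. Genes named with values were core subunits, the highest and lowest log2 fold change per complex and model among members averaging at least 100 counts, members called between the models, and isoform pairs. Uqcrc2, Atp5h, Atp5j2 and the genes named from other lists fall outside this rule and were picked after their values were seen.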

Additional observations from a re-analysis of the deposited data

Results flagged for a closer look

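Dixon's test at the 95% level was applied to the CPM of each named member in each group, 111 groups of 4 or 5 libraries in all, and chance alone gives about 1 in 20. It marked 12 values, of which 8 belong to Spns1 KO 4. That library was the lowest Spns1 KO library for Atp5a1 (323.7 CPM, the next at 552.3), Atp5b (663.2 CPM, the next at 1230.2), Cox6a1 (72.05 CPM, the next at 116.8), Cyc1 (92.76 CPM, the next at 151.0), Sdhc (49.92 CPM, the next at 107.1), Sdhd (77.42 CPM, the next at 153.7) and Uqcrfs1 (73.77 CPM, the next at 150.2). It was the highest for mt-Cytb, at 44110 CPM with the next at 32110 CPM. Spns1 KO 3 was the highest for Cox6a2, at 0.8016 CPM with the next at 0.4024. FeO 4 was the highest FeO library for Cox6c (270.8 CPM, the next at 78.26) and Cox7a1 (6.821 CPM, the next at 1.115), and FeO 1 for Uqcrc1 (105.5 CPM, the next at 69.49).

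The log2 fold changes of 4 of the 52 members differed between the models in a direct contrast by edgeR's quasi-likelihood test. Of all genes tested, 6.76% were higher in Spns1 KO and 8.1% in FeO. The Atp5l call was lost in 11 of the 13 fits without 1 library, and the Atp5mpl call in 2. Spns1 KO exceeded FeO by 1.127 for Cox7c, 0.9105 for Sdha, 0.8421 for Atp5mpl and 0.5269 for Atp5l.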

How the results depend on the processing

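Over the alternatives, 37 to 45 members were upregulated in Spns1 KO and 31 to 41 in FeO, and none was downregulated under any of them. Of the 43 calls in Spns1 KO, 36 were kept in all 13 fits that left out 1 library and in all 10 other alternatives without a library left out, and of the 39 in FeO, 34 were kept in the former and 28 in both. The count of members that differ between the models, 4, was 9 with DESeq2, 2 with only the 2 groups compared, 7 with each library's trend with transcript length and GC taken out, 20 without both Spns1 KO 4 and FeO 4 (chosen after seeing the data), and 2 to 17 leaving out 1 library. Removal of the trend with length and GC brought the median log2 fold change to 0.52 for complex II in FeO, 0.93 and 0.74 for complex III in Spns1 KO and FeO, 1.06 and 0.59 for complex IV, and 0.87 and 0.59 for complex V. That alternative ended 8 FeO calls, those of Atp5b (0.41), Atp5h (0.50), Atp5mpl (0.48), Cox7b (0.60), Cyc1 (0.40), Sdhb (0.50), Uqcrc1 (0.38) and Uqcrc2 (0.48), and 6 Spns1 KO calls, those of Cox6a2 (1.81), Cox6b2 (0.96), mt-Co2 (0.76), Sdhb (0.35), Sdhd (0.53) and Uqcrc1 (0.36), and the cause was not tested.

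The replicate numbers were not used to pair libraries in the main fit. Correlations of same-numbered libraries ran from -0.296 to 0.256. Differently numbered libraries were not compared, so these values cannot show whether the numbers mark pairs. With a replicate block, 39 members were upregulated in Spns1 KO, 33 in FeO and 3 differed between the models. The block ended the Spns1 KO calls of Cox6b2 (1.26), mt-Co2 (0.86), Sdhb (0.69) and Uqcrc2 (0.73) and the FeO calls of Atp5b (0.62), Cox7b (0.76), mt-Co1 (0.77), mt-Co2 (0.83), mt-Co3 (0.84) and Uqcrc2 (0.62).

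The alternatives for the other lists were chosen after seeing the data. The Spns1 KO count of upregulated assembly factors ran from 11 to 19 when 1 library was left out. With library totals only or the trend removed, 1 assembly factor was downregulated in each model, and in FeO also 1 with the replicate block and 0 to 1 when 1 library was left out. Biogenesis factors upregulated in Spns1 KO numbered 1 with library totals only and 1 with the replicate block, and 1 to 3 when 1 library was left out. Those downregulated in Spns1 KO numbered 1 with no filter, 1 with the replicate block, 1 with the trend removed, 4 without both Spns1 KO 4 and FeO 4, and 1 to 4 when 1 library was left out, and those downregulated in FeO numbered 3 with no filter.

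Signs turned for genes called in neither direction in that comparison. In FeO, Atp5g2 was at -0.15 with the trend removed and ran from -0.087 to 0.47 when 1 library was left out. In Spns1 KO, Cox4i2 was at -0.049 with library totals, -0.33 with the trend removed and -0.21 to 0.35 without 1 library. In FeO, Cox6b2 was at -0.32 with the trend removed, -0.033 without both libraries and -0.12 to 0.43 without 1 library. Without both libraries the FeO values were -0.10 for Cox6c, -0.59 for Cox7a1 and -0.025 for Cox8b, and without 1 library they ran from -0.095 to 0.97, -0.59 to 1.02 and -0.023 to 1.34. Cox7c in FeO was at -0.10 with the trend removed. In FeO, mt-Atp6 was at 0.0066 with mitochondrial genes left out of library sizes, 0.040 with no filter, 0.087 with shared-sequence genes added and -0.19 to 0.19 without 1 library, and its permutation difference ran from -0.19 to 0.22. In FeO, mt-Atp8 was at -0.041 with library totals, -0.12 with the replicate block, -0.082 without both libraries and -0.28 to 0.33 without 1 library. Members with under 30 counts in a library, such as Cox6a2, are limited by depth.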
